A study of Mus musculus with 2 samples.

Results

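The Il7r-positive progenitors were 335 of the 7823 cells kept from a sort of mouse bone marrow multipotent progenitors, 105 of 3253 in library 1 and 230 of 4570 in library 2. They were chosen by their measured UMIs. A cell was counted as Il7r-positive when its barcode held at least 500 genes, had under 10% of its UMIs (unique molecular identifiers, each standing for 1 captured RNA molecule) from mitochondrial genes, held at least 1 Il7r UMI, and held under 10 UMIs of the class II genes Cd74, H2-Aa, H2-Ab1 and H2-Eb1 together. They were set against all 7488 other kept cells and against the 1240 Il7r-negative cells with at least 4 UMIs of Dntt, called Dntt cells here, of which 404 were in library 1 and 836 in library 2. The Dntt cells are a subset of the other kept cells.

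The cells came from 1 C57BL/6 wild-type sample and 1 C57BL/6 Spp1-/- sample, which lacks osteopontin. Both were taken 20 h after thioglycollate, an irritant that recruits leukocytes to the peritoneum, had been injected into the peritoneal cavity. Cells with the surface phenotype Lin–Sca-1+c-kit+CD34+ and positive for Flt3 (written Flt3L in the labels) were sorted and profiled with 10X Single Cell 3' chemistry, 1 library per sample. The sources used here do not state whether a sample pooled several mice, nor their age or sex. Nothing in the sources used here ties either barcode suffix of the pooled matrix to a genotype, so the libraries are called 1 and 2 and no difference is given a direction by genotype. With 1 library for each genotype no test between libraries or genotypes was possible. Intervals are 95% intervals (exact Poisson for levels, conditional Poisson for ratios, Clopper-Pearson for shares) and cover counting error only, not the spread between mice or between cells.

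The interleukin-7 receptor is the cytokine receptor that marks the common lymphoid progenitor of bone marrow, the stage from which B cells, and in part T, natural killer and dendritic cells, are derived. In that stage Dntt, which encodes the terminal transferase that adds bases at antigen receptor gene joints, and the recombinase genes Rag1 and Rag2 become active. Ly6d, a surface protein, divides common lymphoid progenitors into those with several lymphoid fates and those biased towards B cells. Classical common lymphoid progenitors carry less Kit and Sca-1 than the cells of this gate.

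In GENCODE M21 on the build GRCm38, Il7r and Ly6d share chromosome 15, and Dntt and Blnk share chromosome 19. Il7r occupies chromosome 15 from 9505788 to 9530176 on the minus strand, Ly6d chromosome 15 from 74762056 to 74763620 on the minus strand, and Dntt chromosome 19 from 41029275 to 41059525 on the plus strand. Promoters of 3 genes from the RefSeq table (GRCm38.p6, 250 bases before to 50 after the start, on the gene's strand) are shown because Il7r chose the cells and Dntt and Blnk were among the genes most raised with it. The Il7r and Blnk windows lie wholly inside the GENCODE spans of these genes, because the RefSeq and GENCODE starts differ. Capitals mark the E-box letters CANNTG and the RUNX letters TGTGGT, searched on both strands.
Il7r, chr15:9529827-9530126, minus strand: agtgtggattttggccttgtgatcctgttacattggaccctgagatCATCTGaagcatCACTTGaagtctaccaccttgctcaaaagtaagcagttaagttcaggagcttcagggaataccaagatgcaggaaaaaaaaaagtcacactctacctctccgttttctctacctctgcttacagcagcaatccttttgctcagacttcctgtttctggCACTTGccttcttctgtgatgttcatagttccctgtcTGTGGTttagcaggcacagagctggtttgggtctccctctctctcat
Dntt, chr19:41029025-41029324, plus strand: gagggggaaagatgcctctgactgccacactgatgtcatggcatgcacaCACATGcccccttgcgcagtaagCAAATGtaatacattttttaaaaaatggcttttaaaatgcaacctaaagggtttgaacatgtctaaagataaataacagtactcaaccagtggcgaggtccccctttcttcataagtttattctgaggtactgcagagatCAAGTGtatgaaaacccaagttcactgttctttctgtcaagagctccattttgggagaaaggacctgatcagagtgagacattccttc
Blnk, chr19:40994172-40994471, minus strand: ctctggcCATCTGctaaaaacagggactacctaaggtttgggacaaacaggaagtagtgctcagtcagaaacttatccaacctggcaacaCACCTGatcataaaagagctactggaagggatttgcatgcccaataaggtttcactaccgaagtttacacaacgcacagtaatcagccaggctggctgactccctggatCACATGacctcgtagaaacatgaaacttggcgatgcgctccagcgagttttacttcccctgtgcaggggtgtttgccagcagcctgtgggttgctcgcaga
Each of the 3 windows held 3 E-box matches, and the Il7r window also held 1 RUNX match. An E-box match is common, present in 72.1% of 27025 promoters of this length. It was present in 20 of the 27 matched promoters of the 35 genes called higher in the Il7r-positive cells. Of the 5904 matched promoters of the genes compared, 61.4% held one. The RUNX letters were in 6 of those 27 promoters, in 16.9% of all promoters and in 12.4% of those of the genes compared. These are matches of letters and say nothing of a bound factor.

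The libraries differed in depth, and the Il7r-positive cells were no deeper than the rest. Their median was 2674 UMIs per cell in library 1 and 3772.5 in library 2, against 2837 and 3839 in the other cells and 2787 and 3989 in the Dntt cells. Together they held 317826 UMIs in library 1 and 898721 in library 2, so library 1 limits every comparison that asks for both libraries. Of all barcode sequences, 32 occurred in both libraries, and 4 Il7r-positive cells carried one of them. Without those barcodes the share of Il7r-positive cells was 3.23% and 5.002%.

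Il7r itself was read at the limit of detection. In library 1, 91 of the 105 cells held 1 Il7r UMI, 12 held 2 and 2 held 3 or more, and in library 2, 184 of 230 held 1, 36 held 2 and 10 held 3 or more. Class II UMIs were 0 in 73 and 132 of the cells. The members with most class II UMIs held 7, 7, 7 and 9, and the 4 Il7r-positive cells just outside the limit held 10, 10, 12 and 16, with 3 of these in library 1. These values chose the cells and are a description.

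The share of kept cells that were Il7r-positive was 3.23% (2.65 to 3.89) in library 1 and 5.03% (4.42 to 5.71) in library 2. After every cell was thinned to 2000 UMIs, which left out 809 and 554 shallower cells, it was 2.58% (63 of 2444, interval 1.99 to 3.29) and 2.91% (117 of 4016, interval 2.42 to 3.48). At equal depth the intervals of the libraries overlapped, which they did not at full depth.

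An Il7r UMI was found far more often in cells with much Dntt. Of cells without a Dntt UMI, 0.462% in library 1 and 0.476% in library 2 had an Il7r UMI, class II-rich cells included. The share was 2.87% and 3.48% at 1 to 3 Dntt UMIs, 13.1% and 11.9% at 4 to 7, and 18.2% and 19.3% at 8 to 15. At 16 or more it was 35.1% of 97 cells in library 2 (25.6 to 45.4), and 2 of 12 cells in library 1. Median depth varied from 2731 to 2944 UMIs between the Dntt classes in library 1 and from 3667 to 4049 in library 2. After thinning, the share still went from 0.406% and 0.354% without Dntt to 14.3% and 18.5% at 8 or more Dntt UMIs.

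Cells that should lack the receptor set the background. Granule cells were taken as cells without Dntt that held at least 5 UMIs of the granule genes Elane, Prtn3 and Ctsg together. An Il7r UMI was found in 0 of 641 of them in library 1 (upper limit 0.574%). In library 2 it was found in 5 of 978 (0.511%, interval 0.166 to 1.19). The median depths of the granule cells were 3988 and 5121.5 UMIs, deeper than those of the Il7r-positive cells. In the remaining cells without Dntt it was found in 8 of 1091 in library 1 (0.733%, interval 0.317 to 1.44) and in 5 of 1121 in library 2 (0.446%, interval 0.145 to 1.04). These intervals overlap those of the granule cells in both libraries, and the median depths of these cells were 2232 and 2720 UMIs. The Il7r-positive cells were made up of 17 without Dntt, 81 with 1 to 3 Dntt UMIs and 237 with 4 or more.

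**Figure D1:**
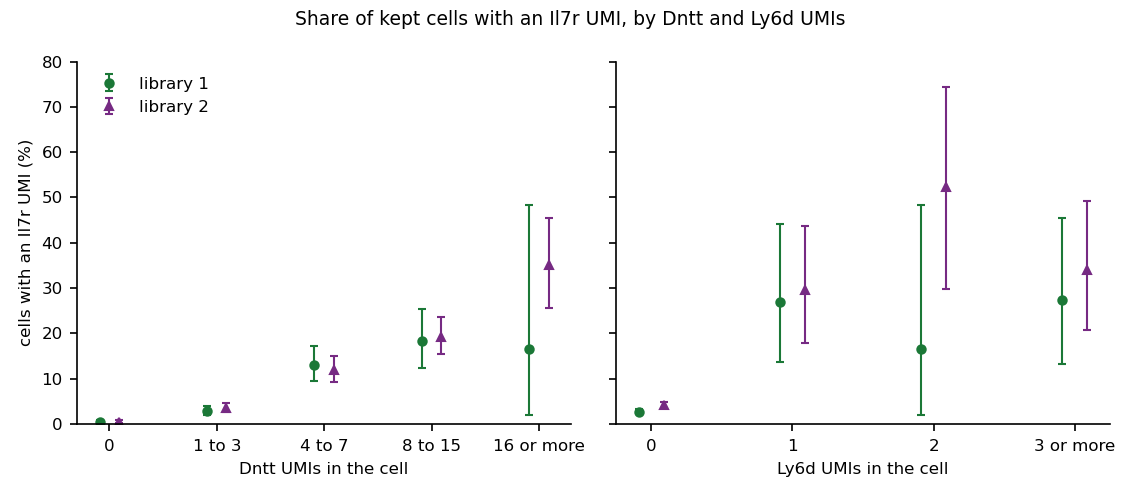
Share of kept cells with an Il7r UMI (y axis, percent) by the number of Dntt UMIs (left) and Ly6d UMIs (right) in the cell, in library 1 (circles) and library 2 (triangles), with 95% Clopper-Pearson intervals. The share goes from under 0.5% without Dntt to 35.1% in library 2 at 16 or more Dntt UMIs, and is 2.74% and 4.23% without Ly6d.

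The label of common lymphoid-like cells was checked against marker lists. At least 3 of the 9 further markers (Ly6d, Dntt, Flt3, Rag1, Rag2, Notch1, Ccr9, Cd27 and Cnn3) were detected in 52.4% and 70.9% of the Il7r-positive cells, 38.9% and 55.1% of the Dntt cells, and 15.2% and 25% of the other cells. Markers of committed lymphoid cells were scarce. No Il7r-positive cell held 3 or more of the 8 B-cell, 6 T-cell or 9 natural killer and innate lymphoid markers, and Pax5, Igll1, Cd3e, Cd3d, Cd3g and Bcl11b had no UMI in any of the 335 cells. The summed level of the 7 granulocyte-monocyte markers was 749 and 703 CPM (UMIs scaled to a total of 1000000), against 1896 and 1980 in the other cells, with Elane at 0. At least 3 of these 7 were detected in 6.67% (7 cells) and 9.57% (22 cells) of the Il7r-positive cells and in 16.3% and 21.7% of the others. At least 3 of 5 plasmacytoid dendritic markers were detected in 1.90% (2 cells) and 5.22% (12 cells), against 2.64% and 5.30% of the others. The summed level of these 5 markers was higher in the Il7r-positive cells, at 683 and 669 CPM. It was 552 and 584 CPM in the Dntt cells and 488 and 506 CPM in the others. The sort's own markers were present. Ly6a, which encodes Sca-1, was at 315 and 279 CPM against 311 and 295 in other cells, Cd34 at 346 and 408 against 416 and 459, and Kit at 28.3 and 23.4 against 36.3 and 37.3. Spp1 had no UMI in the Il7r-positive cells of either library.

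Il7r-positive cells were compared with all other kept cells over the 7526 genes with at least 200 UMIs. A gene was called higher or lower when its CPM differed by at least 2-fold in the same direction in both libraries. By this rule 35 genes (0.465% of those compared) were higher and 88 (1.17%) were lower. The counts of UMIs behind the directions differ. Of the 35 higher genes, 3 had under 10 UMIs in the Il7r-positive cells of a library, while 80 of the 88 lower genes did and 47 rested on 0 or 1 UMI in library 1. The higher calls are therefore better counted than the lower ones.

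Among the enzymes of early lymphoid cells, Dntt was the most abundant. In Il7r-positive cells it stood at 1775 CPM (library 1) and 2126 CPM (library 2), and at 450 and 519 CPM in other cells, a log2 ratio of 1.98 (1.85 to 2.11) and 2.04 (1.96 to 2.11). At least 1 Dntt UMI was found in 93.3% and 95.7% of the Il7r-positive cells and in 45.2% and 51.9% of the others. Arpp21, a gene that encodes a cyclic AMP-regulated phosphoprotein, was at 81.8 and 108 CPM against 18.2 and 19.2. Xrcc6, which encodes the Ku70 end-joining protein that acts in recombination, was at 145 and 166 CPM against 74.9 and 86.7 and did not reach 2-fold. Of the 6 measured genes of the recombination and early enzyme list 2 were called higher and 0 lower, and the median log2 ratio was 0.74 and 0.92, beside -0.05 and -0.04 over all 7526 genes.

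The recombinase genes were near the limit of detection. Rag2 was under the 200-UMI minimum, with 153 UMIs in all kept cells, of which 34 fell in the 335 Il7r-positive cells. It was detected in 6 of 105 cells in library 1 and 27 of 230 in library 2, at 18.9 and 31.2 CPM against 3.67 and 4.65 in other cells. The log2 ratio was 2.36 (0.82 to 3.62) and 2.74 (2.07 to 3.38). Rag1 had 4 of its 12 UMIs in these cells, 1 in library 1 and 3 in library 2, too few for a ratio to be read.

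Ly6d had the largest ratio of the called genes by the smaller of its values in the 2 libraries. It reached 337 CPM (library 1) and 197 CPM (library 2), against 24.0 and 18.9 CPM in other cells, which is 14.04-fold and 10.4-fold. The UMIs were unevenly held. Ly6d was detected in 19 of 105 and 43 of 230 Il7r-positive cells, and 1 cell of library 1 held 30 of that library's 107 UMIs. By cells, Ly6d was detected in 18.1% (11.3 to 26.8) and 18.7% (13.9 to 24.3) of the Il7r-positive cells and in 2.001% and 1.82% of the others. After thinning these shares were 12.8% and 14.4% against 1.48% and 1.36%.

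Of the 14 measured genes of the list of lymphoid surface and cytokine receptors, 4 were higher and 0 lower, with a median log2 ratio of 0.42 and 0.55. Besides Ly6d these were Notch1, Ly86 and Cnn3, which the list holds although it does not encode a receptor. Notch1, the receptor needed for the T-cell fate, stood at 81.8 and 82.3 CPM against 32.7 and 32.9, a log2 ratio of 1.33 in library 1 and 1.32 in library 2. Of the 7 measured Notch pathway genes it was the only one called. Ly86, the partner of the receptor RP105, was at 56.6 and 57.9 CPM against 18.6 and 19.4, and Cnn3, an actin-binding calponin, at 44.0 and 70.1 against 16.1 and 21.2. Flt3, whose ligand drives lymphoid priming and which was part of the sort, was at 157 and 201 CPM against 121 and 138 and was not called. Cd27 was not called either, at 352 CPM in each library against 229 and 267. Ccr9, the thymus-homing chemokine receptor, was under the minimum with 23 of its 144 UMIs in Il7r-positive cells. Its level was 28.3 and 15.6 CPM against 4.08 and 4.54.

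Of the 21 measured genes of interleukin-7 signalling, 0 were called higher and 0 lower, and the median log2 ratio was -0.08 and -0.23. Over all 7526 genes 0.465% were higher and 1.17% lower, so 0 calls in a list of this size are near that share. The common gamma chain Il2rg, which pairs with Il7r, stood at 62.9 and 37.8 CPM against 47.0 and 44.5. Bcl2, a survival gene induced through this receptor in lymphocytes, was at 107 and 132 CPM against 74.7 and 89.9. Stat5a, which carries the receptor's signal, was at 9.44 and 20.0 CPM against 21.02 and 22.3, from 3 and 18 UMIs. The feedback inhibitor Cish held 0 and 1 UMI. Jak1 was at 53.5 and 56.7 CPM against 63.2 and 67.9.

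B-lineage genes were represented by Blnk and by traces of Ebf1. Blnk, the adaptor of B-cell receptor signalling, was at 44.0 and 45.6 CPM against 6.33 and 7.28, a log2 ratio of 2.80 (1.85 to 3.65) and 2.65 (2.10 to 3.16), and was the only called gene of the 4 measured B-lineage genes. Ebf1, the factor that commits cells to the B lineage, had 30 UMIs in all kept cells and 16 of them in Il7r-positive cells, 4 in library 1 and 12 in library 2. The 4 UMIs of library 1 were all in 1 cell, and the 12 of library 2 were in 8 cells. It was found in 9 of the 335 Il7r-positive cells against 13 of the 7488 others (4 in library 1 and 9 in library 2). Cd79b, part of the B-cell receptor complex, was at 91.2 and 71.2 CPM against 63.4 and 70.9 and was not called.

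Of the T-lineage list only Lck, the kinase of T-cell receptor signalling, passed the minimum of UMIs. It was at 81.8 and 106 CPM against 40.6 and 42.6 and was called higher. Cd247, the zeta chain of that receptor, had 11 of its 43 UMIs in the Il7r-positive cells, 3 and 8. None of the 4 measured natural killer and innate lymphoid genes was called in either direction. With 0.465% of all 7526 genes called higher and 1.17% lower, 0 calls in 4 genes are near that share.

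None of the 20 measured lymphoid transcription factors reached 2-fold in both libraries, although the median log2 ratio was 0.55 and 0.23. Calls were rare over all 7526 genes as well, at 0.465% higher and 1.17% lower. Irf8, a factor of B-cell, monocyte and dendritic development, came nearest by CPM. It stood at 227 and 391 CPM against 114 and 155, 1.98-fold and 2.52-fold. Mef2c was at 396 and 426 CPM against 262 and 275, and Satb1, a chromatin organiser of early lymphoid cells, at 88.1 and 119 against 62.1 and 72.2. Ikzf1, the gene of Ikaros, was at 138 and 105 CPM against 83.1 and 81.1, and Tcf3, the gene of the E2A proteins, at 31.5 and 44.5 against 42.0 and 44.5.

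A gene listed with dendritic cells was among the strongest. Cox6a2, a subunit of cytochrome oxidase found in plasmacytoid dendritic cells and muscle, stood at 488 and 372 CPM against 73.8 and 67.3, 6.61-fold and 5.52-fold. It was detected in 53.3% and 67.0% of Il7r-positive cells and in 13.7% and 15.9% of others. Cox6a2 was the only one of the 9 measured dendritic genes called. The median log2 ratio of these genes was 0.47 and 0.51 against other cells and 0.46 and 0.22 against Dntt cells. Siglech, a surface marker of plasmacytoid cells, held 1 UMI in library 1 and 4 in library 2. Tcf4, the factor of the plasmacytoid fate, was at 186 and 179 CPM against 123 and 126, and Bst2 at 453 and 445 against 328 and 336.

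The other genes with the largest increases came from several classes. Cmah, which modifies sialic acids, was at 72.4 and 44.5 CPM against 7.24 and 7.34. Tmem108, a membrane protein gene, was at 72.4 and 46.7 CPM against 11.4 and 8.68. Mpeg1, the gene of the pore-forming protein perforin-2, was at 94.4 and 72.3 CPM against 16.9 and 16.6. Mgst2, a glutathione transferase, was at 59.8 and 44.5 CPM against 14.7 and 10.2, and Lgmn, a lysosomal protease, at 40.9 and 53.4 against 10.8 and 15.7. Myl4, Ttc13, Sapcd1 and AA467197 completed the 15 genes with the largest ratios, each with log2 ratios of at least 1.586 in both libraries. H2-Ob, a non-classical class II gene that the selection did not use, was at 62.9 and 66.8 CPM against 21.6 and 25.8. Clec12a, a C-type lectin of myeloid cells, was at 97.5 and 139 CPM against 37.3 and 48.3, and the cytokine subunit gene Il12a at 214 and 172 against 97.4 and 85.9.

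**Figure D2:**
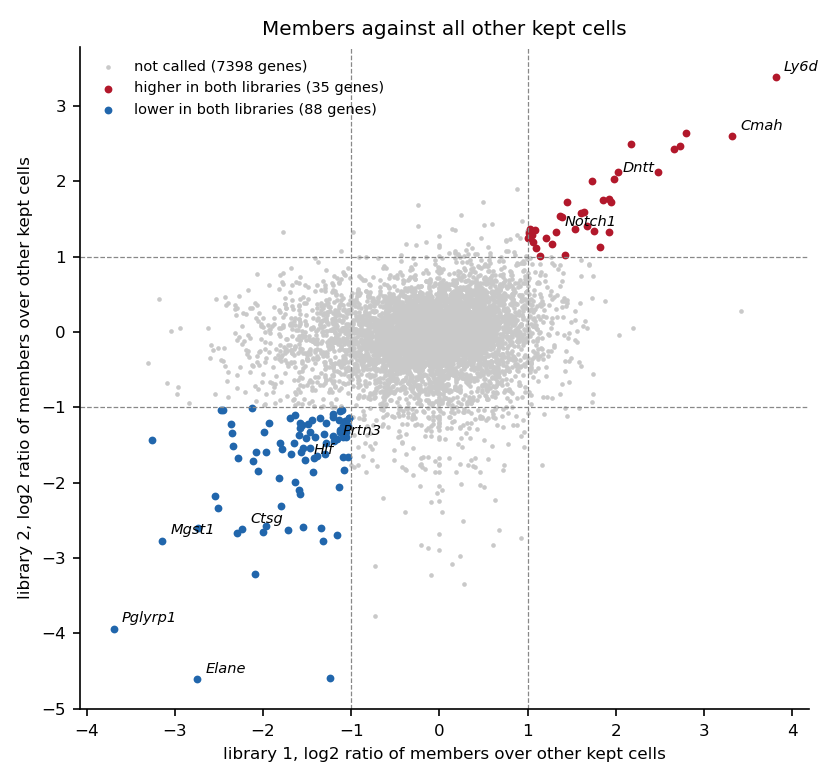
Log2 ratio of CPM in Il7r-positive cells over all other kept cells in library 1 (x axis) and library 2 (y axis), 1 point for each gene with at least 200 UMIs, without Il7r and the class II genes of the rule. The 35 genes called higher (red) and the 88 called lower (blue) lie beyond the dashed 2-fold lines in both libraries, with Ly6d at 3.81 and 3.38.

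Genes of myeloid granules were lower in the Il7r-positive cells. Of 19 measured genes of the myeloid list 7 were lower (Mpo, Elane, Prtn3, Ctsg, Ms4a3, Csf3r and Hp) and 1, Clec12a, was higher, and the median log2 ratio was -0.69 and -1.36 with genes at 0 set at the 3-UMI limit. Ctsg, the gene of cathepsin G, was at 37.8 and 38.9 CPM against 178 and 238. Mpo, the gene of myeloperoxidase, was at 56.6 and 60.1 CPM against 170 and 155. Prtn3, the gene of proteinase 3, was at 573 and 486 CPM against 1312 and 1325, and 59.0% and 58.7% of Il7r-positive cells still held a Prtn3 UMI, against 84.1% and 88.8% of others. Plac8 was not called, at 4219 and 3864 CPM against 2546 and 2766.

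Elane, the gene of neutrophil elastase, had no UMI in the 335 Il7r-positive cells. In other cells it stood at 63.3 and 81.2 CPM, so that with 3 UMIs per library allowed it was at least 6.70-fold lower in library 1 and 24.3-fold lower in library 2. The other cells with an Elane UMI were few and deep, 39 and 75 cells with median depths of 5549 and 6017 UMIs. In other cells drawn to the depths of the Il7r-positive cells, 3 for each, Elane held 1 UMI in 315 cells and 9 UMIs in 690 cells, and the difference could not be seen. With the same matched cells Ctsg kept a log2 ratio of -1.50 and -1.61 and Prtn3 of -1.14 and -1.27, while Mpo was at -1.04 and -0.67 and no longer past 2-fold in library 2.

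Some stem cell and megakaryocyte-erythroid genes were lower. Of the 15 measured stem and multipotency genes 3 were lower and 0 higher, with a median log2 ratio of -0.28 and -1.04. Hlf, a factor of stem cells, was at 18.9 and 14.5 CPM against 54.2 and 46.9. Ifitm1 was at 1032 and 959 CPM against 2559 and 2454, and Angpt1, which encodes angiopoietin-1, was the third, from 3 and 5 UMIs. Procr had no UMI in the Il7r-positive cells of either library. Of 6 measured megakaryocyte-erythroid genes 3 were lower. Car2, carbonic anhydrase 2, was at 113 and 131 CPM against 336 and 398, Muc13 at 22.0 and 15.6 against 45.2 and 49.3, and Hbb-bt at 25.2 and 7.79 against 101 and 49.0. Hbb-bt shares most of its sequence with another beta-globin gene, and the sources used here do not state how the authors' counting divided such reads.

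The 15 lower genes with the largest ratios were mostly scarce. Pglyrp1, a peptidoglycan-binding granule protein gene, had 1 and 2 UMIs in Il7r-positive cells against 40.7 and 34.1 CPM in others, and Mgst1 had 1 and 3 UMIs against 27.7 and 22.7 CPM. Cd63, a tetraspanin of granules and lysosomes, was better counted, at 47.2 and 31.2 CPM against 185 and 186. Rab38 was at 25.2 and 35.6 CPM against 109 and 117. Meg3, Cox4i2, Myct1, Krt18, Tmem37, Tgfbi, Alkbh2 and Il15 each had 7 UMIs or fewer in either library.

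**Figure D3:**
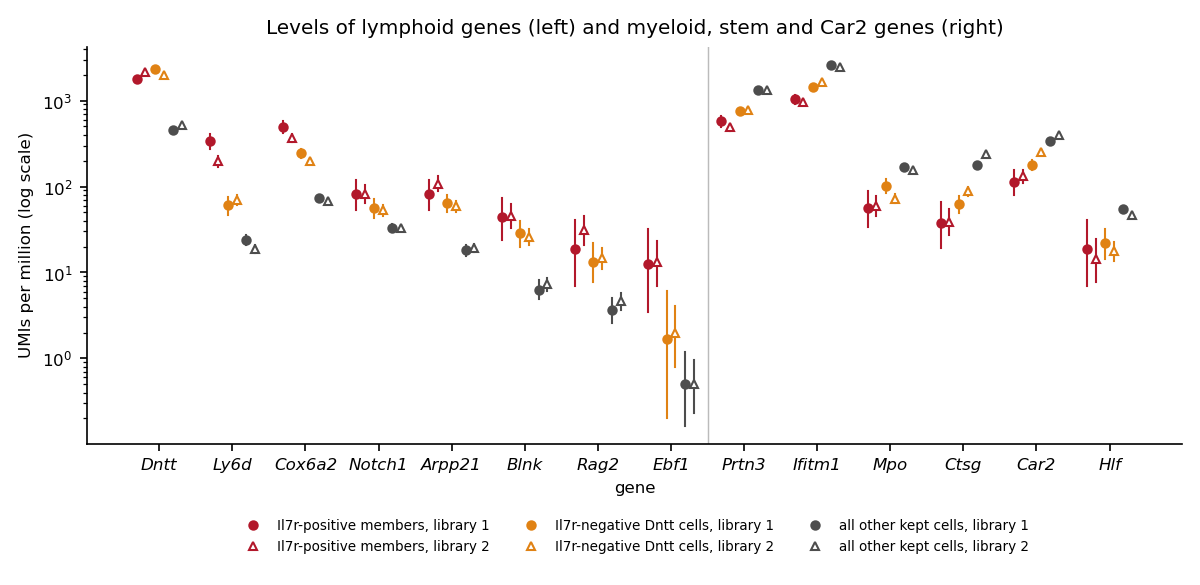
Level of 14 genes (y axis, CPM on a log scale), in Il7r-positive cells (red), Il7r-negative Dntt cells (orange) and all other kept cells (grey) of library 1 (filled circles) and library 2 (open triangles), with exact Poisson 95% intervals. The Dntt cells, which are among the other cells, lie between the other groups for all genes shown except Dntt, with Cox6a2 at 488 and 372 in Il7r-positive cells, 243 and 196 in Dntt cells and 73.8 and 67.3 in others.

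Set against the Il7r-negative Dntt cells, the Il7r-positive cells differed in few genes. Since 91 of 105 and 184 of 230 Il7r-positive cells held only 1 Il7r UMI, some Dntt cells without one may hold unread Il7r RNA. How far this draws the groups together was not tested. Of 7526 genes 13 (0.173%) were higher and 31 (0.412%) lower, and 5 and 22 of these were also called against all other cells, which include the Dntt cells. Dntt chose the comparison cells, and its level there, 2333 and 1992 CPM, is a description. All 31 lower genes and 9 of the 13 higher ones had under 10 UMIs in the Il7r-positive cells of a library, and 22 of the lower genes rested on 0 or 1 UMI in library 1. With a minimum of 1000 UMIs, 0 genes were higher and 2 lower.

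The higher genes with counts above that range were Ly6d, Cmah and Mpeg1, with Epb41. Ly6d was at 337 and 197 CPM against 60.2 and 70.1 in the Dntt cells, a log2 ratio of 2.48 (2.04 to 2.93) and 1.49 (1.20 to 1.78), and was detected in 6.68% and 7.06% of the Dntt cells. With barcodes of at least 1000 genes and under 5% mitochondrial UMIs, the mean log2 ratio of both libraries for Ly6d went from 1.99 to 1.21 against the Dntt cells and from 3.60 to 2.95 against all other cells, and after thinning it was 1.24 against the Dntt cells. Cmah was at 72.4 and 44.5 CPM against 21.7 and 21.7. Mpeg1 was at 94.4 and 72.3 CPM against 40.1 and 35.5. Epb41, which encodes a membrane skeleton protein, was at 34.6 and 25.6 CPM against 11.7 and 8.87. Ly6d, Gclc, Zfp729b, BC037034, Fancd2, Bmi1, Dolpp1, Gphn, Eea1 and Epb41 had the 10 largest ratios, and apart from Ly6d and Epb41 each had under 10 UMIs in a library. Among the lower genes Zfp141, Mgst1, Mtap7d3, Rell2, Isg20l2, Alkbh2, Gm26510, Scyl3, Pglyrp1 and Xrcc3 each had 1 UMI in library 1.

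Cox6a2 fell just short of the threshold against the Dntt cells, at 488 and 372 CPM against 243 and 196, a log2 ratio of 1.003 (0.71 to 1.29) and 0.92 (0.73 to 1.11). Irf8 was at 227 and 391 CPM against 162 and 197, 0.48 and 0.98 on the log2 scale. Blnk stood at 44.0 and 45.6 CPM against 28.4 and 26.0, and Rag2 at 18.9 and 31.2 against 13.4 and 14.9. Ebf1 was found in 2 of 404 and 7 of 836 Dntt cells, against 1 of 105 and 8 of 230 Il7r-positive cells. On the myeloid side Prtn3 was at 573 and 486 CPM against 764 and 779 and Ctsg at 37.8 and 38.9 against 61.9 and 87.5. The 7 granulocyte-monocyte markers together were lower, at 749 and 703 CPM against 1064 and 1072 in the Dntt cells. The wider myeloid list summed to 5629 and 5390 CPM against 5397 and 5103. Of the 19 measured genes of this wider list 0 were called in either direction, and the median log2 ratio was 0 in each library. Over all genes compared 0.173% were called higher and 0.412% lower. In both libraries 10 of them lay above the median of all genes compared and 6 below it. Elane, with no UMI in Il7r-positive cells and 2 and 8 in Dntt cells, was set to a ratio of 0. That places it among the 10, since the medians of all genes were -0.014 and -0.008. The tally and the median of 0 therefore rest in part on genes without UMIs. After thinning, 2.33% and 2.48% of Il7r-positive cells held 5 or more UMIs of Mpo, Elane, Prtn3 and Ctsg together, 6.81% and 7.70% of Dntt cells did, and 20.7% and 19.1% of all other cells.

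**Figure D4:**
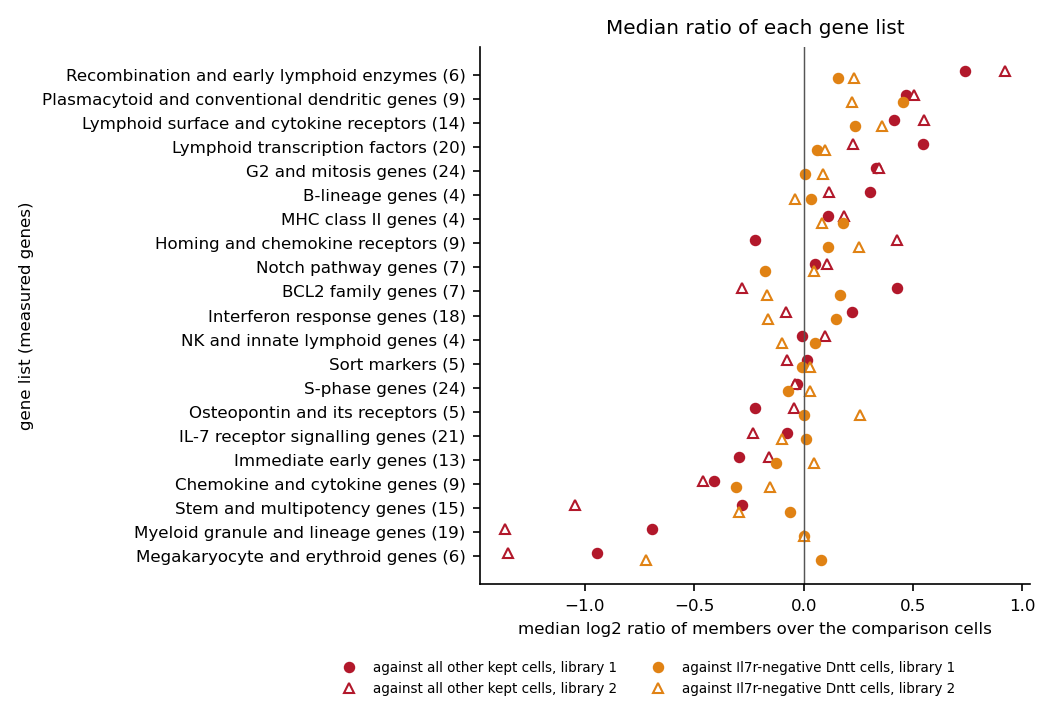
Median log2 ratio of the measured genes of each list (x axis; number of genes in brackets) for Il7r-positive cells over all other kept cells (red) and over Il7r-negative Dntt cells (orange), in library 1 (filled circles) and library 2 (open triangles). Recombination and early lymphoid enzymes lie at 0.74 and 0.92 against all other cells and at 0.16 and 0.23 against Dntt cells.

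The Il7r-positive cells were not uniform, and Ly6d divided them. The 62 Ly6d-positive cells (19 and 43) were compared with the 273 Ly6d-negative ones over the 2925 genes with at least 50 UMIs in the Il7r-positive cells. By the same 2-fold rule 8 genes (0.274%) were higher in the Ly6d-positive cells and 20 (0.684%) lower. The split used Ly6d itself, which is left out. Library 1 held only 48819 UMIs in its Ly6d-positive cells, and 16 of the 20 lower genes rested on 0 or 1 UMI there.

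Irf8 was the best counted of the higher genes. It stood at 574 and 741 CPM in Ly6d-positive cells and at 164 and 314 CPM in Ly6d-negative cells, a log2 ratio of 1.81 (1.07 to 2.53) and 1.24 (0.91 to 1.56). Myl4 was at 164 and 156 CPM against 26.0 and 33.9, Ly86 at 184 and 143 against 33.5 and 39.3, Blnk at 123 and 112 against 29.7 and 31.2, and Tmem108 at 184 and 99.7 against 52.0 and 35.2. These 4 rested on 6 to 9 UMIs in the Ly6d-positive cells of library 1. Rce1, Meaf6 and Smco4 completed the 8.

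The same split was made in the Il7r-negative Dntt cells, which took no part in it, 27 and 59 of them Ly6d-positive. There the log2 ratio was 2.08 and 1.54 for Myl4, 1.03 and 1.96 for Blnk, 1.31 and 1.29 for Ly86 and 1.28 and 1.69 for Tmem108. These 4 genes passed 2-fold in both libraries of the separate cells as well, from 4 to 8 UMIs in the Ly6d-positive cells of library 1. Genes of dendritic and myeloid cells passed there too. Cox6a2 was at 1.77 and 1.68, Clec12a at 1.73 and 1.26, and Lgmn at 1.45 and 1.21. Siglech was further apart, at 4.26 and 4.69. It stood at 68.4 CPM in Ly6d-positive against 3.56 in Ly6d-negative Dntt cells of library 1 and 31.4 against 1.22 in library 2. These levels rest on 5 UMIs against 4 in library 1 and 7 against 4 in library 2. The part of these genes in the result was not tested. Irf8 was at 0.46 and 1.38 and passed in library 2 only. Meaf6 was at 0.00 and -0.10, Smco4 at -0.28 and -0.67, and Rce1 at 0.53 and -1.51, so these 3 did not pass there.

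**Figure D5:**
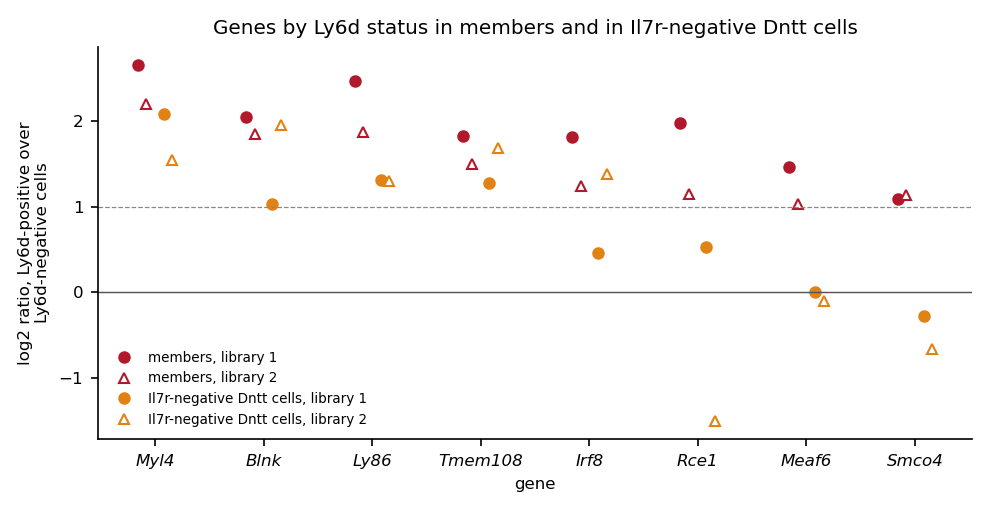
Log2 ratio of CPM in Ly6d-positive over Ly6d-negative cells (y axis) for the 8 genes called higher in Il7r-positive cells, shown in those cells (red) and in Il7r-negative Dntt cells (orange) of library 1 (filled circles) and library 2 (open triangles). Myl4, Blnk, Ly86 and Tmem108 lie above the dashed 2-fold line in all 4 cases, and Irf8 is at 0.46 in the Dntt cells of library 1.

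Ebf1 was mostly on the Ly6d-positive side. Of the 16 Ebf1 UMIs in Il7r-positive cells, 14 were in Ly6d-positive cells, 4 in library 1 and 10 in library 2, and the other 2 were in Ly6d-negative cells of library 2. Among the 9 Ebf1-positive cells 7 also held Ly6d, against 62 of all 335. All 4 Rag1 UMIs were in Ly6d-positive cells. Other genes of this kind did not follow the division. Rag2 had 1 UMI in Ly6d-positive against 5 in Ly6d-negative cells of library 1 and 8 against 20 in library 2, log2 ratios of 0.14 and 0.88. Cd79b was at 0.20 and -0.61, and Vpreb1, a surrogate light chain gene, had 0 UMIs against 3 in library 1 and 1 against 1 in library 2. Flt3 was nearly level, at 164 and 212 CPM in Ly6d-positive against 156 and 199 in Ly6d-negative cells. Dntt was at 2376 and 2411 CPM against 1665 and 2065, and Cox6a2 at 799 and 511 against 431 and 341, neither of them 2-fold. Prtn3 was at 389 and 324 CPM against 606 and 522, and Ctsg at 20.5 and 31.1 against 40.9 and 40.6. Mpo differed in direction between the libraries. It was at 20.5 CPM, from 1 UMI, against 63.2 in library 1. In library 2 it was at 112 against 48.8, a log2 ratio of 1.20 (0.30 to 2.06).

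The number of Il7r UMIs was set beside some of the genes named above. Dntt was at 1692 and 2059 CPM in cells with 1 Il7r UMI and at 2339 and 2370 CPM in the 14 and 46 cells with 2 or more. Ly6d was at 343 and 202 CPM against 295 (153 to 516) and 179 (125 to 249), with intervals that overlap. Mpeg1 was at 82.97 and 59.7 CPM against 172 (69.3 to 355) and 118 (74.6 to 177), again with overlap. The granule genes differed in direction. Ctsg was at 32.5 and 28.4 CPM against 73.9 (15.2 to 216) and 76.8 (43.0 to 127). Mpo was at 61.3 and 66.8 CPM against 24.6 (0.62 to 137) and 35.8 (14.4 to 73.8). The intervals overlap for both genes.

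Mitotic transcripts were more frequent in library 2. After thinning, 10 or more UMIs from the list of 24 G2 and mitosis genes were found in 15.1% (8.30 to 24.5) of Il7r-positive cells in library 1 and in 32.7% (26.3 to 39.6) in library 2. The Dntt cells gave 17.3% and 25.6% and the other cells 9.71% and 19.8%, so library 2 was above library 1 in every group. None of the 24 genes reached 2-fold between Il7r-positive and other cells, and the list's median log2 ratio was 0.33 and 0.35. Over all 7526 genes 0.465% were higher and 1.17% lower in that comparison. At least 10 UMIs of the S-phase genes were found in 24.4% and 30.2% of Il7r-positive cells, against 22.6% and 30.9% of others.

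Within the Il7r-positive cells, 103 of 2925 genes (3.52%) were at least 2-fold higher in library 2 than in library 1 and 11 (0.376%) were lower. In the other cells the same genes gave 22 (0.752%) and 11 (0.376%), and 17 of the higher and 7 of the lower genes were shared. The Il7r-positive cells of library 1 hold few UMIs, and with a minimum of 200 UMIs the counts were 9 higher and 5 lower. Ppia, Rps6, Rpl15, Rps28, Rps29 and Rps27rt, each with at least 46 UMIs in the Il7r-positive cells of either library, differed about as much in other cells. Ppia, the gene of cyclophilin A, was at 157 and 980 CPM in Il7r-positive cells of library 1 and 2 and at 134 and 925 CPM in others, Rps6 at 425 and 2109 against 426 and 1981, and Rpl15 at 145 and 754 against 147 and 761.9. Lower in library 2 were Rps28, at 3596 and 1434 CPM against 3397 and 1395, Rps29, at 2983 and 1225 against 2931 and 1179, and Rps27rt, at 818 and 263 against 805 and 245. Many of these genes have near-identical copies, and their levels are uncertain where the counting divided reads between copies. Each library is also the only sample of its genotype, so genotype and library cannot be told apart.

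Ide and Mrpl23 were further apart in Il7r-positive than in other cells. Ide was at 12.6 and 82.3 CPM in Il7r-positive cells and at 44.4 and 83.5 CPM in others, and Mrpl23 at 3.15 and 62.3 against 10.6 and 53.0. Both rest on under 5 UMIs in Il7r-positive cells of library 1, and the difference between the cell groups was not tested. Akr1b3, at 3.15 and 54.5 CPM against 7.86 and 46.6, and Ergic2, at 15.7 and 72.3 against 57.9 and 67.4, rest on 1 and 5 UMIs there. Gstp1, at 3.15 and 70.1 CPM against 4.796 and 75.1, rests on 1 UMI. Timm23, Ppp1r8, Gm6133, Gm12355 and N6amt1 were lower in library 2, with log2 ratios of -1.40 to -1.13 in Il7r-positive cells. In other cells Gm6133 was at -1.29, Gm12355 at -0.83, Timm23 at -0.65 and N6amt1 at -0.10, and Ppp1r8 lay on the opposite side of 0, at 0.30 (0.14 to 0.46).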

How the data were processed

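The authors deposited 1 matrix of UMI counts for both libraries, with 27998 genes and 7884 barcodes. Cell Ranger 1.1 and the build mm10 are listed in the submitters' processing notes. The sources used here do not state filters or cell calling before deposit. Library 1 and 2 are the barcode suffixes, and 0 columns of values were left unmapped. Cells were kept and grouped as described above, UMIs were summed per library and group and scaled to CPM, and a group at 0 was set at 3 UMIs per library for ratios. No p-value was computed, since each genotype has 1 library. The members and gene lists were chosen with earlier results of these data known. Named genes were the 15 most changed in each direction against other cells, the 10 against Dntt cells and the 8 between libraries, ranked by the smaller ratio of both libraries, 2 to 4 of each list, the lymphoid markers and Spp1. Others named for comparison were chosen after their values were seen, as was the Ly6d split. Of 386 list symbols 9 were not in the matrix under that name (such as Ighm and Trac). Scrublet in scanpy 1.11.5 called 1 cell per library a doublet, which is too few for a working caller. Doublets were therefore kept, and the 5% with the highest scores were left out as an alternative. Thinning used a fixed seed. Ratios and intervals were tested on simulated data. Python 3.11.15, numpy 2.4.6 and scipy 1.17.1 were used.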

Additional observations from a re-analysis of the deposited data

Results flagged for a closer look

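Cst3, the gene of the protease inhibitor cystatin C, had ratios of opposite sign in the libraries when Il7r-positive cells were set against the Il7r-negative Dntt cells. The log2 ratio was -0.34 in library 1, at 466 against 590 CPM, and 0.19 in library 2, at 589 against 517 CPM. The counting intervals left out 0 in both, -0.61 to -0.08 and 0.04 to 0.33, and the difference between the libraries was not tested.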

How the results depend on the processing

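No paired analysis was possible because each genotype has 1 library and the labels give no replicate numbers that tie libraries together. The largest changes came with the minimum of Il7r UMIs, the thinning and the minimum of UMIs per gene. With at least 2 Il7r UMIs the share of cells was 0.430% and 1.01%, 122 genes were higher and 19 lower than in other cells, 86 higher and 10 lower than in Dntt cells, 48 higher in library 2, and the Ly6d split gave 1 higher and 8 lower. With cells thinned to 2000 UMIs the shares were 2.58% and 2.91%, 22 genes were higher than in other cells, 20 higher and 49 lower than in Dntt cells, 28 higher in library 2, and the split gave 4 higher and 12 lower. With a minimum of 50 UMIs (20 within the Il7r-positive cells) 86 genes were higher than in other cells, 51 higher and 51 lower than in Dntt cells, 439 higher and 74 lower in library 2, and 50 higher in the split. With a minimum of 1000 (200 within the Il7r-positive cells) 12 were higher and 20 lower than in other cells, 0 higher and 2 lower than in Dntt cells, 9 higher and 5 lower in library 2, and 1 higher and 0 lower in the split. The comparison with Dntt cells gave 53 lower at a Dntt minimum of 2, 23 higher at 8, 21 higher and 49 lower with cells matched on depth, and 20 higher with the mean CPM over cells. Genes lower in the Ly6d split numbered 39 with TMM scaling, 35 with the mean CPM over cells and 11 with barcodes of 1000 genes and under 5% mitochondrial UMIs.

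Against Dntt cells the mean log2 ratio of both libraries turned to 0.78 for Scyl3 with at least 2 Il7r UMIs and to 0.37 for Zfp141 after thinning. Ly6d was at -1.66 against other cells and -3.27 against Dntt cells without the Ly6d-positive cells, by construction. Of 720 values of 58 named ratios under other settings these 4 changed sign and 11 came to 0 and had no direction, 8 with at least 2 Il7r UMIs and 3 after thinning. Genes with few UMIs such as Mgst1 and Alkbh2 against Dntt cells gave 0 with at least 2 Il7r UMIs. The minimum of 1000, the removal of Ly6d-positive cells, the removal of shared barcodes and every setting of the Ly6d split were added after the data had been seen. Depth limits most lower calls, which rest on few UMIs.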
